A study of Homo sapiens with 10 samples.

Results

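The 37 genes described here encode MYC, RNA polymerase I with its transcription factors, and proteins that modify, fold, cut and assemble ribosomal RNA (rRNA) in the nucleolus. They were taken as a list of gene names for this process, set with earlier results of these data known, and the list was not cut by any value. All 37 were found among the 78894 genes of the deposited table, and all 37 were among the 29045 genes that passed the filter on low values and were tested. Messenger RNA was measured in HEK293T, a cell line derived from embryonic kidney and in wide use, kept for 24 h in medium without added L-cysteine (0X-Cys, 2 libraries), in complete medium (1X-Cys, 4 libraries) or in medium with 10 times the cysteine of complete medium (10X-Cys, 4 libraries). The libraries are labelled as biological replicates of this 1 cell line, and every value below is a normalized count, that is, the reads of a gene divided by the size factor of the library. RNA was sequenced to ask whether transcript levels change with cysteine supply.

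Ribosome production starts with RNA polymerase I, which transcribes the rRNA precursor in the nucleolus. Small nucleolar ribonucleoproteins (snoRNPs) then modify the precursor, a large complex called the small subunit processome cuts and folds one part of it, and a separate chain of factors builds the large subunit from the rest. The process uses much of the energy and protein of a growing cell, and MYC, a transcription factor bound to the E-box motif with its partner MAX, is known as an activator of many of these genes.

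In excess cysteine, 32 of the 37 genes fell, 1 rose (NOB1) and 4 did not pass the test (RRN3, UTP4, UTP14A and WDR12). The test was limma on log2(normalized count + 1), and the call was made where the Benjamini-Hochberg adjusted p, over all genes tested, did not exceed 0.01. In the same comparison 22.9% of all genes tested were called lower and 23.1% higher. All 37 members are abundant, and among the 8793 genes with a mean of 1000 or more the shares were 39.2% lower and 30.3% higher. The median log2 fold change of the members was -0.43, against 0.01 for all genes tested and -0.05 for the abundant genes. For 32 members every 10X-Cys library lay below every 1X-Cys library, which was so for 25.5% of all genes tested.

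The comparison of starved with complete medium used the same 4 1X-Cys libraries. Without cysteine, 22 of the 37 genes fell, 0 rose and 15 did not pass the test, where 8.51% of all genes tested were called lower and 7.39% higher. Among the abundant genes the shares were 19.3% and 10.8%. The members' median log2 fold change was -0.25, against 0.00 for all genes tested and -0.05 for the abundant genes. Both 0X-Cys libraries lay below all 4 1X-Cys libraries for 29 members, which was so for 23.6% of all genes tested. At an unadjusted limma p under 0.05, 0 members were higher and 29 lower, where 18.7% of all genes tested were higher and 19.7% lower. On the recovered reads edgeR called 0 members higher and 22 lower (4941 genes in all), and DESeq2 called 0 higher and 24 lower (5435 genes in all). Some other settings called fewer members lower, with 17 under quantile normalization, 18 with no filter and 20 under equal totals over nuclear genes. Others called more, with 26 in 1 fit over all groups and 28 at the looser adjusted p of 0.05. With only 2 starved libraries the calls lean on each of them. Without 0X-Cys replicate 1 the count of members called lower was 7 and without 0X-Cys replicate 2 it was 10. A set of 7 members (NOP16, UTP20, PES1, RRP9, DDX21, BYSL and LTV1) was called lower whichever of the 6 libraries was left out. In excess cysteine 30 of the 32 calls held whichever of the 8 libraries was left out, the exceptions being UBTF and POLR1C.

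The falls were moderate. UTP20 was the member that changed by more than 2-fold in excess cysteine, and the other 31 genes that fell in excess cysteine kept between 50.8% (RRS1) and 88.4% (POLR1C) of their 1X-Cys level. Added up, the 37 genes took 0.911% ± 0.0108 (SD, n = 4) of the reads on nuclear genes in 1X-Cys, 0.812% ± 0.0117 (n = 2) in 0X-Cys and 0.675% ± 0.00531 (n = 4) in 10X-Cys, and the 3 groups did not overlap. In bulk RNA, fewer cells and less RNA per cell cannot be told apart, and neither shows in values scaled per library.

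**Figure D1:**
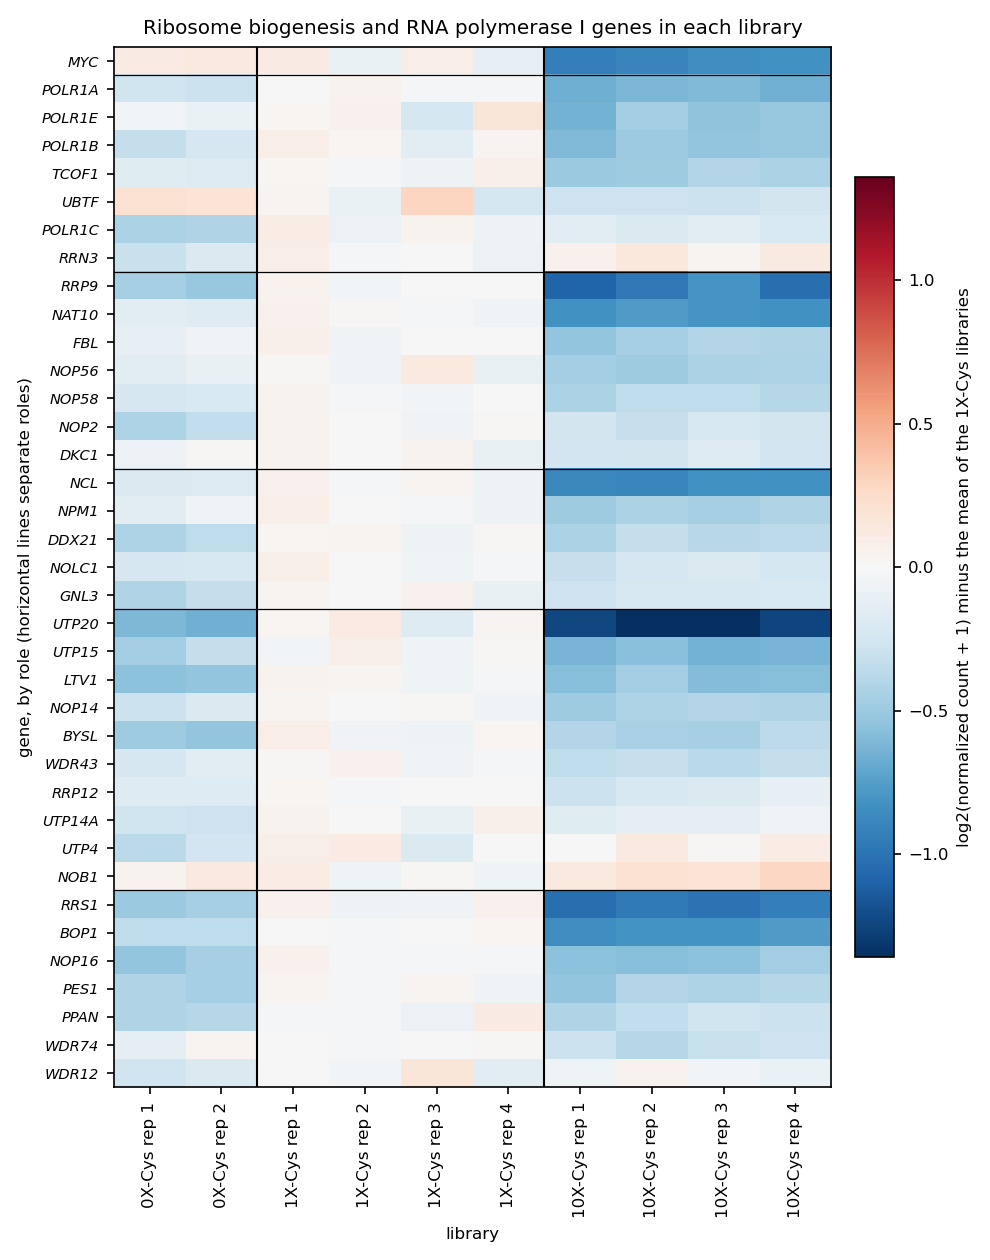
Each row is a gene and each column a library, and colour gives log2(normalized count + 1) minus the mean of the 4 1X-Cys libraries, with blue for lower values. Vertical lines separate 0X-Cys, 1X-Cys and 10X-Cys, horizontal lines separate roles, and the 10X-Cys columns are blue for most genes while NOB1, UTP4 and RRN3 are pale or red there.

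The libraries differed in other respects. Reads on genes numbered 34836014 to 61654861 per library, and each member had at least 854 reads in every library. Reads of genes encoded by mitochondrial DNA made up 4.51% to 5.71% of the total in the 0X-Cys and 1X-Cys libraries and 0.117% to 0.146% in the 10X-Cys libraries, and the part of this in the members' values was not tested. All 8 HEK293T-typical markers, VIM and NEFM among them, were at 100 or more in every library (summed 51481 to 62169), while the 5 T cell markers summed to at most 13.7 with CD3E at 0, the 5 hepatocyte markers to at most 34.6 with APOB at 0, and the 5 markers of the SKBR3 line to between 470 and 667, mostly from GATA3, with KRT7 and TFAP2B at 0.

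Levels of different genes can be set side by side only per length. The length used here was that of all annotated exon bases of a gene, over all its transcripts together. It was 8311 bases for NPM1, 8919 for NCL, 2138 for FBL and 3970 for NOLC1. The length of the transcripts present in these cells was not measured, so the order below depends on the annotation and is approximate. Per kilobase of annotated exon, NPM1 stood highest in 1X-Cys with 9301 ± 441 normalized counts (SD, n = 4), followed by NCL with 7239 ± 296, FBL with 5742 ± 223 and NOLC1 with 5420 ± 226. FBL and NOLC1 overlap within their SD, and NPM1 and NCL do not. NPM1 and NCL encode nucleophosmin and nucleolin, the abundant phosphoproteins of the nucleolus. The catalytic subunits of the polymerase were far lower, with 371.3 ± 8.68 for POLR1A and 445.9 ± 31 for POLR1B, and the lowest members were UTP15 with 281.8 ± 11.7 and WDR12 with 274.1 ± 24.2, whose values overlap within their SD.

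MYC fell in excess cysteine and was not called without cysteine. Its normalized counts were 5771 and 5893 in 0X-Cys, 5781, 5022, 5717 and 4970 in 1X-Cys, and 2813, 2886, 2981 and 3038 in 10X-Cys. The 10X-Cys values lie well below all others, at about 54.6% of 1X-Cys, while the 0X-Cys values lie at the top of the 1X-Cys range and overlap it. The change was called in excess cysteine (log2 fold change -0.87 ± 0.053 SE, adjusted p = 4.88e-10) and was not called without cysteine (log2 fold change 0.12 ± 0.069 SE, adjusted p = 0.211). Set directly against each other, 10X-Cys was at 50.2% of 0X-Cys (log2 fold change -0.99 ± 0.045 SE, adjusted p = 1.71e-15). The exact 2-sided permutation test over libraries gave p = 0.0286 for 10X-Cys against 1X-Cys, the smallest value 4 libraries against 4 allow. For 2 libraries against 4 the smallest is p = 0.133, so the exact permutation test cannot reach 0.05 in any comparison with 0X-Cys.

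Of the 7 genes of RNA polymerase I and its factors, 6 fell in excess cysteine and 3 fell without cysteine. POLR1A, the largest subunit with part of the catalytic centre (chr2:86020216-86106155, minus strand, GRCh38), gave 6040 and 5988 in 0X-Cys, 7331, 7545, 7213 and 7160 in 1X-Cys, and 4622, 4753, 4811 and 4636 in 10X-Cys. Its 3 groups did not overlap, with 1X-Cys highest and 10X-Cys lowest. It fell in excess cysteine (log2 fold change -0.64 ± 0.037 SE, adjusted p = 2.61e-10) and without it (log2 fold change -0.28 ± 0.05 SE, adjusted p = 0.000972). POLR1B, the second-largest subunit, gave 3192 and 3415 in 0X-Cys, 4251, 4085, 3609 and 4102 in 1X-Cys, and 2651, 2834, 2767 and 2809 in 10X-Cys. It showed the same order of groups, with -0.53 ± 0.051 in excess (adjusted p = 1.17e-07) and -0.28 ± 0.069 without cysteine (adjusted p = 0.00869), and the second call was lost in 5 of 6 leave-outs and under both other scalings. POLR1E, a subunit that helps the enzyme to bind and elongate, ranged over 2024 to 2108 in 0X-Cys, 1827 to 2412 in 1X-Cys and 1387 to 1567 in 10X-Cys. Its 0X-Cys values lay inside the 1X-Cys range and its 10X-Cys values below it, and it fell there to 68.8% (log2 fold change -0.54 ± 0.071 SE, adjusted p = 5.52e-06) with no call without cysteine (adjusted p = 0.656). TCOF1 encodes treacle, a nucleolar scaffold for the polymerase, and it fell in excess cysteine to 73.1% with a range of 12359 to 12500 in 0X-Cys, 13338 to 14696 in 1X-Cys and 9903 to 10651 in 10X-Cys.

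The other 3 genes of this role had other patterns. POLR1C, a subunit that RNA polymerase I shares with RNA polymerase III, was lowest without cysteine, with 2088 and 2112 in 0X-Cys, 3013, 2665, 2905 and 2690 in 1X-Cys, and 2535, 2449, 2526 and 2438 in 10X-Cys. It fell in 0X-Cys (log2 fold change -0.42 ± 0.067 SE, adjusted p = 0.000453) and in 10X-Cys (log2 fold change -0.18 ± 0.049 SE, adjusted p = 0.0048), and 10X-Cys was above 0X-Cys in the direct test (log2 fold change 0.24 ± 0.047 SE, adjusted p = 9.29e-05). Its call in excess cysteine was lost in 4 of 8 leave-outs and under equal totals and quantile normalization. RRN3, the factor that recruits the polymerase to the promoter and is itself under growth control, gave 2063 and 2233 in 0X-Cys, 2713, 2518, 2568 and 2418 in 1X-Cys, and 2658, 2828, 2611 and 2768 in 10X-Cys. Its 10X-Cys values overlapped those of 1X-Cys while both 0X-Cys values lay below, with 0.09 ± 0.048 in excess (adjusted p = 0.125), -0.25 ± 0.067 without cysteine (adjusted p = 0.013) and a call in the direct test (log2 fold change 0.34 ± 0.05 SE, adjusted p = 2.85e-06). RRN3 was called higher in excess under quantile normalization (0.15, adjusted p = 0.00719), and it was called lower without cysteine in several alternatives, DESeq2 among them (-0.25, adjusted p = 0.00447). UBTF encodes the upstream binding factor that holds rRNA genes open, and it gave 6719 and 6625 in 0X-Cys, 5980, 5473, 7132 and 4914 in 1X-Cys, and 4798, 4783, 4766 and 4890 in 10X-Cys. The 1X-Cys libraries span both starved values, and all 10X-Cys values lie just under the lowest 1X-Cys library. UBTF was called lower in excess (log2 fold change -0.28 ± 0.077 SE, adjusted p = 0.00601), but the call was lost in 5 of 8 leave-outs, with equal totals (adjusted p = 0.0133) and with quantile normalization (adjusted p = 0.0194). Leaving out 1X-Cys replicate 3, the highest, kept the call and brought the change to -0.18. Without cysteine UBTF was at 0.20 ± 0.1 (adjusted p = 0.183), and without that same library it was called higher, at 0.29. The 10X-Cys and 0X-Cys values of UBTF did not overlap (log2 fold change -0.47 ± 0.039 SE, adjusted p = 1.83e-10).

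**Figure D2:**
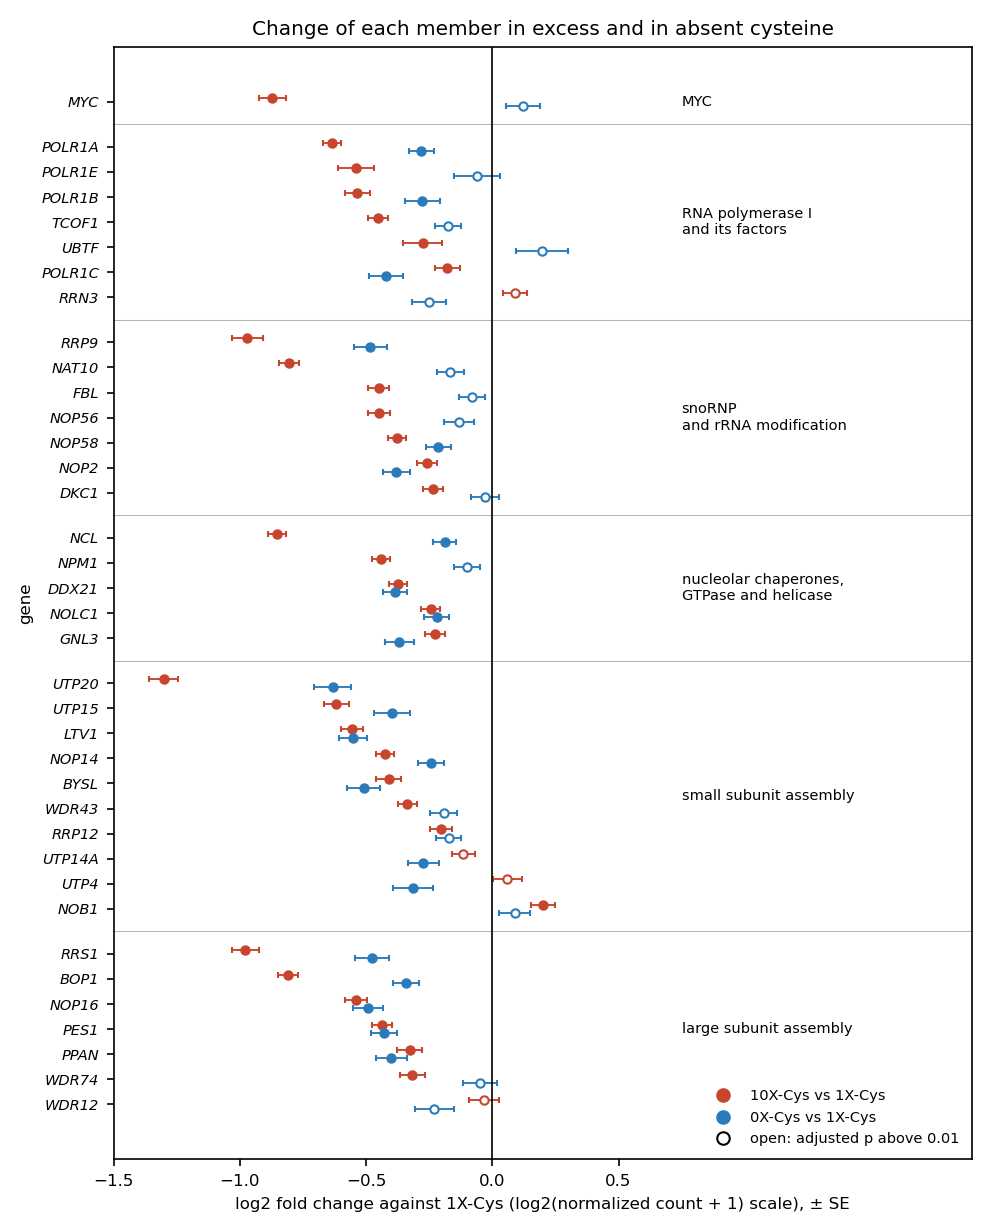
The horizontal axis gives the log2 fold change against 1X-Cys with its standard error, in red for 10X-Cys and in blue for 0X-Cys, for each gene grouped by role, and open points mark an adjusted p above 0.01. MYC, NCL and NAT10 show the red point far to the left of the blue one, UTP4, RRN3 and POLR1C show the reverse order, and LTV1, DDX21 and PES1 show the points on top of each other.

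All 7 genes of the snoRNPs and of rRNA modification fell in excess cysteine, and 3 of them fell without cysteine. RRP9 encodes a protein of the U3 snoRNP, which guides early cuts of the precursor (chr3:51933429-51941904, minus strand), and it had 1326 and 1276 in 0X-Cys, 1876, 1773, 1810 and 1816 in 1X-Cys, and 855.7, 927.9, 1045 and 893.0 in 10X-Cys. The groups were ordered 1X-Cys, 0X-Cys, 10X-Cys with no overlap, and the level in excess was 51% of complete medium (log2 fold change -0.97 ± 0.061 SE, adjusted p = 7.3e-10) and 71.5% without cysteine (log2 fold change -0.48 ± 0.065 SE, adjusted p = 0.000136). NAT10, the acetyltransferase that modifies cytidines of 18S rRNA, had 5264 and 5176 in 0X-Cys, 6089, 5928, 5745 and 5683 in 1X-Cys, and 3318, 3431, 3361 and 3302 in 10X-Cys. It dropped to 57.2% in excess (log2 fold change -0.81 ± 0.039 SE, adjusted p = 3.15e-11), and its starved libraries, although both below every complete one, were not called (log2 fold change -0.17 ± 0.052 SE, adjusted p = 0.03).

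The box C/D core proteins moved by less. FBL, fibrillarin, the 2'-O-methyltransferase, ranged over 11357 to 11837 in 0X-Cys, 11744 to 12903 in 1X-Cys and 8431 to 9291 in 10X-Cys, and NOP56, its partner, over 12780 to 13290 in 0X-Cys, 13334 to 15603 in 1X-Cys and 10177 to 10699 in 10X-Cys. For FBL the 0X-Cys and 1X-Cys ranges overlapped and for NOP56 they lay side by side, while the 10X-Cys values were below both. In excess cysteine FBL fell to 73.2% (log2 fold change -0.45 ± 0.041 SE, adjusted p = 6.19e-08) and NOP56 to 73.3%. Without cysteine neither was called (adjusted p = 0.259 and 0.123). NOP58, the other partner, fell in both media, to 77% in excess and 86.3% without cysteine, the second call being lost in 4 of 6 leave-outs. DKC1, the pseudouridine synthase dyskerin that is also part of telomerase, fell to 85% in excess and was at 98% without cysteine (adjusted p = 0.742). NOP2, which methylates cytosine in 28S rRNA, ranged over 4682 to 4970 in 0X-Cys, 6062 to 6471 in 1X-Cys and 5049 to 5407 in 10X-Cys. It fell without cysteine (log2 fold change -0.38 ± 0.053 SE, adjusted p = 0.000186) and in excess (log2 fold change -0.26 ± 0.039 SE, adjusted p = 2.13e-05), and its direct difference was not called (adjusted p = 0.0167).

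The 5 nucleolar chaperones, GTPase and helicase all fell in excess cysteine, and 4 of them fell without cysteine. NCL gave 56378 and 56864 in 0X-Cys, 67043, 63576, 66329 and 61306 in 1X-Cys, and 35224, 34836, 36567 and 36360 in 10X-Cys. Every group stood apart, and NCL was at 55.4% of complete medium in excess (log2 fold change -0.85 ± 0.035 SE, adjusted p = 2.96e-12) and at 87.8% without cysteine (log2 fold change -0.19 ± 0.046 SE, adjusted p = 0.00811), a call lost in 5 of 6 leave-outs. NPM1, which carries proteins between nucleolus and cytoplasm, gave 69274 and 74889 in 0X-Cys, 82312, 76913, 76446 and 73518 in 1X-Cys, and 55337, 57489, 56362 and 58295 in 10X-Cys. It fell in excess (log2 fold change -0.44 ± 0.035 SE, adjusted p = 1.38e-08) and was not called without cysteine (adjusted p = 0.167). These are among the most abundant transcripts, for which quantile normalization gave other values: in excess cysteine -0.50 for NCL and -0.05 for NPM1, which was then no longer called, and -0.03 for NCL without cysteine, also no longer called. Scaling to equal totals over nuclear genes left NCL at -0.81 and NPM1 at -0.40 in excess. NPM1 also has 49 named pseudogenes in the annotation and RRN3 has 5, so that reads shared with them are uncertain.

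NOLC1, a chaperone that shuttles snoRNPs, ranged over 18410 to 18491 in 0X-Cys, 20688 to 22775 in 1X-Cys and 17326 to 18770 in 10X-Cys. Its 0X-Cys and 10X-Cys values overlapped each other and both lay below 1X-Cys, with -0.24 ± 0.038 in excess and -0.22 ± 0.049 without cysteine. The NOLC1 call without cysteine was lost in 3 of 6 leave-outs. DDX21, an RNA helicase that binds both rRNA genes and snoRNAs, gave 18866 and 19824 in 0X-Cys, 25736, 25820, 23989 and 25513 in 1X-Cys, and 18777, 20155, 19393 and 19677 in 10X-Cys. It fell in both media (log2 fold change -0.37 ± 0.035 SE, adjusted p = 1.09e-07 in excess and log2 fold change -0.38 ± 0.048 SE, adjusted p = 7.75e-05 without cysteine), and the direct difference between 10X-Cys and 0X-Cys was 0.01 ± 0.036 with an adjusted p of 0.805. GNL3, nucleostemin, a GTPase that moves between nucleolus and nucleoplasm, was lower in starved than in excess medium (8460 to 8988 in 0X-Cys, 10470 to 11730 in 1X-Cys and 9278 to 9745 in 10X-Cys). It fell to 77.5% without cysteine and to 85.4% in excess, and the direct difference was called (log2 fold change 0.14 ± 0.039 SE, adjusted p = 0.00324) but not without 0X-Cys replicate 1.

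Of the 10 genes of small subunit assembly, 7 fell and 1 rose in excess cysteine, and 7 fell without cysteine. UTP20, a long scaffold protein of the processome (chr12:101280105-101386618, plus strand), changed most of all 37 genes in both media. It gave 3433 and 3339 in 0X-Cys, 5355, 5689, 4645 and 5370 in 1X-Cys, and 2219, 2046, 2049 and 2214 in 10X-Cys. The 3 groups were far apart, and the level was 40.6% of complete medium in excess (log2 fold change -1.30 ± 0.057 SE, adjusted p = 8.39e-12) and 64.5% without cysteine (log2 fold change -0.63 ± 0.072 SE, adjusted p = 3.74e-05). UTP15, a subunit of the processome part that binds the precursor first, gave 1286 and 1423 in 0X-Cys, 1732, 1875, 1714 and 1807 in 1X-Cys, and 1148, 1202, 1142 and 1150 in 10X-Cys. It fell to 65.2% in excess and to 76% without cysteine. LTV1, an adaptor that escorts the small subunit out of the nucleus, gave 3352 and 3407 in 0X-Cys, 5124, 5077, 4760 and 4849 in 1X-Cys, and 3303, 3564, 3298 and 3321 in 10X-Cys. Its 0X-Cys and 10X-Cys values overlapped (68.3% and 68.1% of complete medium, direct difference -0.00 ± 0.046, adjusted p = 0.947). BYSL, bystin, needed for late small subunit steps, fell to 70.2% without cysteine and to 75.2% in excess, over 1686 to 1761 in 0X-Cys, 2343 to 2607 in 1X-Cys and 1792 to 1921 in 10X-Cys.

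NOP14, a processome protein, fell to 74.4% in excess and 84.6% without cysteine, the second call being lost in 4 of 6 leave-outs. WDR43 (UTP5) and RRP12, an export factor, fell in excess to 79.2% and 86.8%, and without cysteine all their libraries were below those of complete medium with no call (adjusted p = 0.0165 and 0.0204). NOB1, the endonuclease that makes the 3' end of 18S rRNA in the cytoplasm, went the other way, with 3724 and 3948 in 0X-Cys, 3858, 3456, 3657 and 3475 in 1X-Cys, and 3960, 4169, 4090 and 4387 in 10X-Cys. Every 10X-Cys library was above every 1X-Cys one, and NOB1 rose in excess by a small amount (log2 fold change 0.20 ± 0.047 SE, adjusted p = 0.00156), with no call without cysteine (0.09 ± 0.062, adjusted p = 0.326).

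UTP4 and UTP14A fell without cysteine and were not called in excess. UTP4, cirhin, a partner of UTP15, gave 2676 and 2875 in 0X-Cys, 3657, 3721, 3020 and 3457 in 1X-Cys, and 3446, 3764, 3503 and 3689 in 10X-Cys. Its 10X-Cys values spanned the upper part of the 1X-Cys range (log2 fold change 0.06 ± 0.059 SE, adjusted p = 0.409), while both 0X-Cys values were below (log2 fold change -0.32 ± 0.079 SE, adjusted p = 0.00932), and the direct difference was 0.38 ± 0.048 (adjusted p = 3.21e-07). The call without cysteine was lost in 4 of 6 leave-outs and under both other scalings. UTP14A, a cofactor of the helicase that removes U3, ranged over 3445 to 3466 in 0X-Cys, 3881 to 4367 in 1X-Cys and 3725 to 4022 in 10X-Cys, with -0.27 ± 0.061 without cysteine (adjusted p = 0.00446) and -0.11 ± 0.046 in excess (adjusted p = 0.0414). The UTP14A call without cysteine was also lost in 4 of 6 leave-outs.

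**Figure D3:**
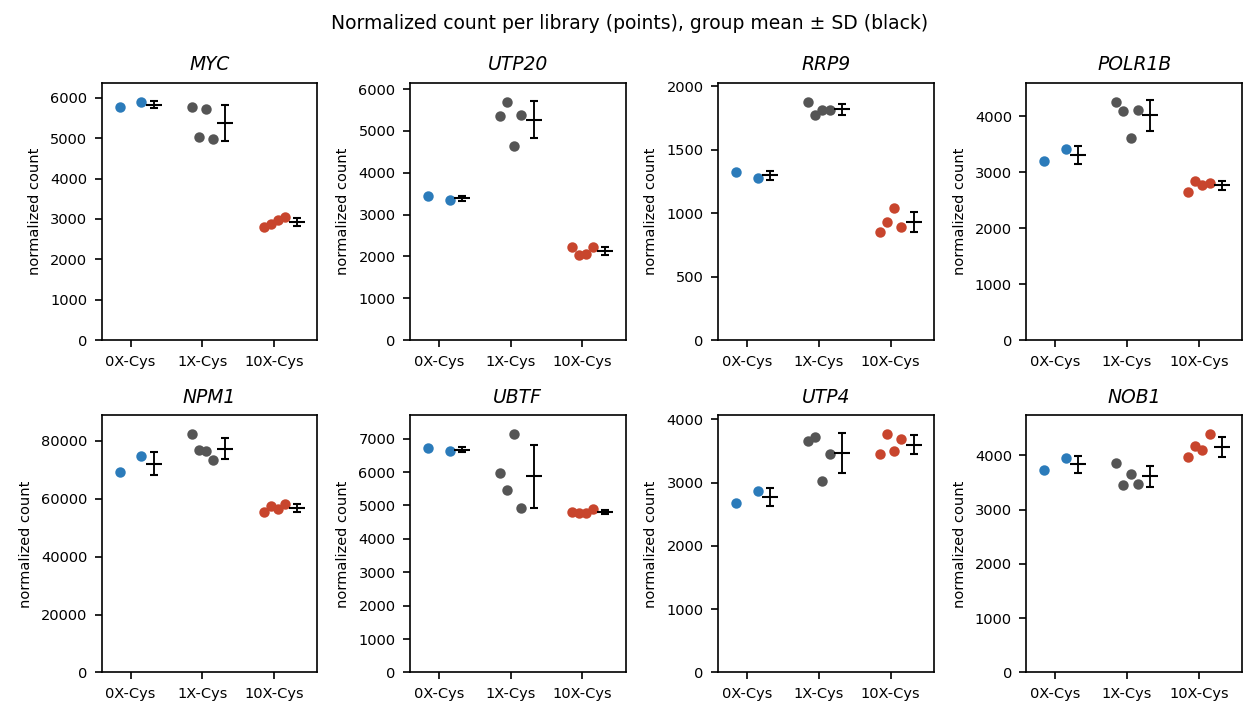
Each panel gives the normalized count of 1 gene in each library (points, vertical axis from 0) by medium, with the group mean ± SD in black (n = 2, 4 and 4). UTP20, RRP9 and POLR1B step down from 1X-Cys to 0X-Cys to 10X-Cys, MYC and NPM1 are apart only in 10X-Cys, UTP4 is lowest in 0X-Cys, and NOB1 is higher in 10X-Cys.

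Of the 7 genes of large subunit assembly, 6 fell in excess cysteine and 5 fell without cysteine. RRS1, which brings the 5S RNA particle into the precursor, gave 1487 and 1549 in 0X-Cys, 2197, 2005, 2047 and 2199 in 1X-Cys, and 1040, 1084, 1055 and 1105 in 10X-Cys. The groups were ordered as for UTP20, at 50.8% of complete medium in excess (log2 fold change -0.98 ± 0.052 SE, adjusted p = 7.85e-11) and 71.9% without cysteine (log2 fold change -0.48 ± 0.067 SE, adjusted p = 0.000206). BOP1, PES1 and WDR12 form the PeBoW complex, which is needed to mature the rRNA of the large subunit, and their calls were unlike. BOP1 gave 4407 and 4403 in 0X-Cys, 5574, 5501, 5560 and 5687 in 1X-Cys, and 3117, 3180, 3177 and 3264 in 10X-Cys. It fell to 57.1% in excess (log2 fold change -0.81 ± 0.038 SE, adjusted p = 1.91e-11) and 78.9% without cysteine. PES1 gave 6082 and 5878 in 0X-Cys, 8267, 7905, 8259 and 7805 in 1X-Cys, and 5570, 6096, 6012 and 6139 in 10X-Cys. It fell in both media (-0.44 ± 0.041 and -0.43 ± 0.051, direct difference -0.01 ± 0.043, adjusted p = 0.902). WDR12 gave 2182 and 2302 in 0X-Cys, 2646, 2565, 2947 and 2389 in 1X-Cys, and 2534, 2724, 2568 and 2463 in 10X-Cys. It was called in neither medium against 1X-Cys (-0.03 ± 0.058, adjusted p = 0.658 in excess, and -0.23 ± 0.078, adjusted p = 0.0412 without cysteine), and 10X-Cys was above 0X-Cys (log2 fold change 0.20 ± 0.05 SE, adjusted p = 0.00163).

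NOP16, a large subunit factor known as a MYC target, fell in both media, to 68.7% in excess and 71.1% without cysteine, over 2118 to 2251 in 0X-Cys, 3016 to 3191 in 1X-Cys and 2056 to 2210 in 10X-Cys. PPAN, a factor of early large subunit assembly, fell to 79.7% and 75.8%. WDR74, which works with an ATPase that releases factors from the large subunit, fell in excess, to 80.3% (log2 fold change -0.32 ± 0.048 SE, adjusted p = 2.71e-05), and was at 96.6% without cysteine (adjusted p = 0.639).

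The direct comparison of 10X-Cys with 0X-Cys, which uses the same libraries again, gave 21 members lower, 6 higher (UTP4, RRN3, POLR1C, WDR12, UTP14A and GNL3) and 10 not called, with a median log2 fold change of -0.18. Here 23.6% of all genes tested were called lower and 24.4% higher, and among the abundant genes 35.4% and 33.7%. Whichever of the 6 libraries was left out, 15 of the 21 lower calls and 3 of the 6 higher calls (UTP4, POLR1C and RRN3) held. Of the snoRNP and modification genes 6 of 7 were lower in excess than without cysteine, and of RNA polymerase I and its factors 5 of 7 were lower and 2 higher. Of the small subunit genes 4 of 10 were lower and 2 higher, and of the large subunit genes 3 of 7 were lower and 1 higher. The largest differences were those of MYC, UTP20 (-0.67 ± 0.05), NCL (-0.66 ± 0.033) and NAT10 (-0.64 ± 0.042).

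Shared sequence limits some of these values. In GENCODE release 44, 23 of the 37 members share exon bases with another annotated gene, and their levels are uncertain to that extent. The methods state that reads lying over more than 1 gene were dropped, and the strand setting of the counting is not given in the sources used here. PPAN shares 1374 bases with the read-through gene PPAN-P2RY11, NOP2 shares 2550 with a gene model on its own strand (ENSG00000285238), NOP14 shares 737 with its antisense gene NOP14-AS1, NOB1 shares 429 with NQO1-DT, MYC shares 194 with CASC11, and NCL, NOP56, DKC1 and GNL3 overlap small RNAs that lie within them. Among the 14 members with no shared exon base, 12 fell in excess cysteine (the other 2, UTP4 and RRN3, were not called) and 7 fell without cysteine. In 10X-Cys against 0X-Cys, 9 were lower and 2 higher. Of all genes tested, 22.9%, 8.51% and 23.6% were called lower in these comparisons, and 24.4% higher in the last. Among abundant genes the shares were 39.2%, 19.3% and 35.4% lower, and 33.7% higher in the last. The subset of 14 was chosen after the values were seen.

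Other genes of the same machinery were counted from lists that hold no member. Beside them, 22.9% of all genes tested fell and 23.1% rose in excess cysteine, and 8.51% fell and 7.39% rose without it. Among abundant genes these shares were 39.2%, 30.3%, 19.3% and 10.8%. Of 38 other small subunit processome genes, 29 fell and 2 rose in excess cysteine (median log2 fold change -0.49) and 20 fell and 1 rose without it (median -0.29). Values after these names are log2 fold changes ± SE. PWP2 and NOL6, both processome subunits, had the largest falls in excess among genes whose groups did not overlap (-0.94 ± 0.047 and -0.84 ± 0.05), and UTP18 and NOL11 fell most without cysteine (-0.65 ± 0.055 and -0.64 ± 0.06). RIOK2, a kinase of late small subunit maturation that shares exon bases with another gene, rose in both media (0.65 ± 0.14 and 0.79 ± 0.19), and its 1X-Cys libraries varied widely (865.3 ± 264, SD, n = 4). Of 50 other large subunit genes, 35 fell and 4 rose in excess (median -0.36) and 23 fell and 1 rose without cysteine (median -0.20). MDN1, the giant ATPase of large subunit maturation, and MRTO4 fell most in excess (-0.81 ± 0.038 and -0.75 ± 0.058), GRWD1 and URB2 fell most without cysteine (-0.65 ± 0.058 and -0.63 ± 0.058), NMD3, the export adaptor, and NOP53 rose in excess (0.63 ± 0.055 and 0.60 ± 0.046), and RSL24D1 rose without cysteine (0.64 ± 0.057). MDN1, GRWD1, NMD3 and NOP53 share exon bases with other genes.

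Of 12 other snoRNP genes, 9 fell and 3 rose in excess and 7 fell without cysteine, with medians of -0.42 and -0.24. NHP2 and NOP10, partners of DKC1 in the H/ACA particles, fell in excess (-0.93 ± 0.038 and -0.89 ± 0.061) and without cysteine (-0.31 ± 0.051 and -0.35 ± 0.071), and NHP2 shares exon bases. ZNHIT6, a snoRNP assembly factor, rose in excess (0.52 ± 0.057). Of 12 other RNA polymerase I genes, 5 fell and 3 rose in excess, and 3 fell without cysteine. These are 41.7% lower and 25.0% higher in excess and 25.0% lower without cysteine, near the 39.2%, 30.3% and 19.3% of abundant genes. Among all genes tested the shares were 22.9%, 23.1% and 8.51%. Not all of the list reaches a mean of 1000, as TAF1B had a mean of 708.7 in 0X-Cys and 863.3 in 10X-Cys. POLR1G, a subunit of the polymerase that shares exon bases with another gene, fell by more than any member in excess (-1.38 ± 0.057, from 2367 ± 153 to 908.7 ± 37.3 normalized counts, SD, n = 4 each) and fell without cysteine (-0.49 ± 0.072). LYAR fell in both media (-0.56 ± 0.043 and -0.29 ± 0.064), and RRP8, which silences rRNA genes, rose in excess (0.83 ± 0.1).

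The promoters of the members were read for the E-box CACGTG, the letters that MYC and other factors of its class bind, which read the same on both strands. RefSeq promoter windows (300 bases around each annotated start, GRCh38.p14) were found for 29 of the 37 genes, and RRS1, POLR1E, NOP58, TCOF1, RRP12, MYC, BOP1 and NOLC1 had no entry. Of these 29 genes, 14 (48.3%) held the E-box in at least 1 window, against 12.2% of the 12116 tested protein-coding genes with a window. The share among abundant genes alone was not taken. By window the shares were 37.8% of 37 for the members, 8.98% of 17714 for tested protein-coding genes and 7.26% of all 35116 promoters. Lists of like function lay between these values, with 27.9% of the 86 other assembly genes that had a window, 37.5% of 16 RNA polymerase III genes, 25.0% of 12 MYC network genes and 16.7% of 12 other RNA polymerase I genes. The roles were unequal, with 7 of 9 genes of small subunit assembly, 4 of 6 of the snoRNP and modification genes, 2 of 4 of the chaperones and helicase, 1 of 5 of large subunit assembly and 0 of 5 of RNA polymerase I and its factors. The motif lay close to the start, with 13 of 14 within 50 bases of it, against 36.9% of 1799 motifs in the promoters of tested protein-coding genes.

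A set of 5 of these windows, from 50 bases before to 10 bases after the RefSeq start, is printed 5′ to 3′ with the E-box in capitals. UTP20, RRP9 and NAT10 are shown as genes with the motif that fell far in excess cysteine, UTP4 as a gene with the motif that was not lower there, and NCL, which fell to 55.4%, as a gene with no such motif in its window.
UTP20 (chr12:101280055-101280114, plus strand): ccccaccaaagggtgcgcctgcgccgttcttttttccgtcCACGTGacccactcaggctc
RRP9 (chr3:51941895-51941954, minus strand): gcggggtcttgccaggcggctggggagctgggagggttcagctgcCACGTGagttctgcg
NAT10 (chr11:34105579-34105638, plus strand): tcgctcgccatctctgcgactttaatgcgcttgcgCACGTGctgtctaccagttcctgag
UTP4 (chr16:69132599-69132658, plus strand): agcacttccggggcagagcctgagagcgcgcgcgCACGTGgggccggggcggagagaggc
NCL (chr2:231464475-231464534, minus strand): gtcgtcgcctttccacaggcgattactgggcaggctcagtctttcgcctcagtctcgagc

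The motif was at -10 in UTP20, -5 in RRP9, -15 in NAT10 and -16 in UTP4, counted as its first base relative to the start. In excess cysteine the 14 members with the motif had a median log2 fold change of -0.42 and the 15 without it -0.33, with 12 called lower in each set. Without cysteine the medians were -0.37 and -0.23, with 11 and 7 called lower. In 10X-Cys against 0X-Cys they were -0.0056 and -0.22, the reverse order, with 6 and 9 called lower and 3 higher in each set. The 8 members with no promoter entry had medians of -0.50 in excess, -0.19 without cysteine and -0.37 in 10X-Cys against 0X-Cys. Called lower among them were 8, 4 and 6. The E-box counts are descriptions of letters in a window, and binding of any factor was not measured.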

How the data were processed

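RNA was sequenced from HEK293T cells after 24 h in 0X-Cys (n = 2), 1X-Cys (n = 4) or 10X-Cys (n = 4) medium, from poly(A) RNA with a directional kit. The deposited values are a normalized signal per gene, which the authors made as read counts divided by DESeq2 size factors, after alignment with STAR 2.7.10b to GRCh38 per the submitters' processing notes. The notes name HTSeq and the methods another counter, and the annotation release and strand setting are not given in the sources used here. Whole reads were recovered for all values (100.00%, within 0.01), which gave the reads per library.

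Genes with 10 or more in 3 of 10 libraries were fitted with limma 3.58.1 (R 4.3.3; trended variance, log2(value + 1), only the 2 groups compared), p-values were adjusted by Benjamini-Hochberg over all 29045 genes tested, and calls were made at 0.01. Fold changes are on the log2(value + 1) scale. Alternatives were other pseudocounts, filters, scalings and thresholds, a replicate block, all groups in 1 fit, leaving out each library, and 2 count models fitted to those reads, edgeR 4.0.16 and DESeq2 1.42.0, which called 13525 and 13816 genes in excess cysteine, 4941 and 5435 without it, and 13834 and 13126 in 10X-Cys against 0X-Cys. Permutation tests used scipy 1.17.1 (Python 3.11.15). The fit was tested on simulated data. Replicates of a group differed by more than sampling noise (chi-square per degree of freedom 3.53 to 14.7).

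The members and lists were chosen with earlier results of these data known. Every member is named, and of each wider list up to 2 rises and 2 falls per comparison, the largest among called genes whose groups did not overlap and whose higher group had a mean of 100 or more. Promoter sequences are from RefSeq (GRCh38.p14). The cysteine content of the proteins was planned and is not analysed here.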

Additional observations from a re-analysis of the deposited data

Results flagged for a closer look

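Of 76 groups of 4 libraries examined (1X-Cys and 10X-Cys, for each member and for the summed share of reads), 5 held a library far from the other 3, its gap to the nearest of them passing Dixon's critical value at 95% for the range of the group. Chance alone does this in about 1 group in 20. DKC1 stood at 8569 in 10X-Cys replicate 3, above 8092 to 8129 in the others. LTV1 stood at 3564 and UTP15 at 1202 in 10X-Cys replicate 2, above 3298 to 3321 and 1142 to 1150. GNL3 stood at 9278 in 10X-Cys replicate 1, below 9705 to 9745. DDX21 stood at 23989 in 1X-Cys replicate 3, below 25513 to 25820.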

How the results depend on the processing

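In excess cysteine the count of members called lower stayed at 30 to 33 when single libraries were left out, with 1 to 1 called higher, a median of -0.44 to -0.41 and 11958 to 13691 genes called of 13372 with all libraries. A 2-fold minimum left 1 member lower, 0 higher and 2942 genes, and members without shared exon bases gave 12 and 0. Quantile normalization gave 29 members lower, 2 higher (NOB1 and RRN3) and a median of -0.34, and equal totals gave 30 lower and a median of -0.39. Without cysteine, leaving out 1 library gave 7 to 24 members lower, 0 to 1 higher, a median of -0.28 to -0.22 and 978 to 6300 genes against 4618, and where 1 starved library remained it was assumed to vary like the complete ones. An adjusted p of 0.05 gave 7987 genes there, a 2-fold minimum 609 genes and 0 members lower, and members without shared exon bases 7 lower. For 10X-Cys against 0X-Cys, leave-outs gave 15 to 21 lower, 3 to 7 higher, a median of -0.23 to -0.15 and 11593 to 13334 genes of 13954. A 2-fold minimum gave 0 lower, 0 higher and 3610 genes, 1 fit over all groups 3 higher, and members without shared exon bases 9 lower and 2 higher. In all these the cause was not tested, beyond fewer libraries or genes by construction.

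Deviations of same-numbered libraries from their group means, over all genes tested, had correlations from -0.0281 to 0.0392 over 8 pairs. This cannot exclude pairing, because genes with low counts take part. The 8 pairs are also not independent, as the deviations of the 2 0X-Cys libraries mirror each other. With the replicate block, the members called without cysteine were 23 lower and 1 higher (UBTF), with 6532 genes, in excess 32 and 1, and in 10X-Cys against 0X-Cys 20 and 5. In the comparisons with 0X-Cys, only libraries of replicates 1 and 2, the numbers that 0X-Cys holds, bear on the difference in the block fit. For these comparisons the block thus also sets libraries aside.

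Some log2 fold changes changed sign, and NPM1 was the one of them that had been called. In excess these were WDR12 (0.0051 with equal totals, 0.024 with quantile normalization, -0.079 to 0.022 over leave-outs) and UTP4 (-0.0046 to 0.096 over leave-outs, the lowest without 1X-Cys replicate 3). Without cysteine they were DKC1 (0.0062 with equal totals, 0.0076 with quantile normalization, -0.076 to 0.018 over leave-outs) and WDR74 (-0.13 to 0.033), both above 0 without 0X-Cys replicate 1. In 10X-Cys against 0X-Cys they were NPM1, NOLC1 and PES1 with quantile normalization (0.029, 0.041 and 0.0020), LTV1 with the replicate block (0.022), and over leave-outs NOLC1 (-0.038 to 0.00079), PES1 (-0.032 to 0.025), DDX21 (-0.024 to 0.047) and LTV1 (-0.031 to 0.0077).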

Other observations

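Of 13 genes of the MYC network tested, 3 fell and 4 rose in excess cysteine (median log2 fold change -0.00), and 1 fell without cysteine (median -0.13). These shares are near those of all genes tested, of which 22.9% were called lower and 23.1% higher in excess and 8.51% lower without cysteine. The list's 23.1% lower in excess and 7.69% lower without cysteine are below the 39.2% and 19.3% of the abundant genes. Not all of the list is that abundant, as MYCL had a mean of 202.3 in 1X-Cys and 345.7 in 10X-Cys. MXD1 and MYCL rose in excess (0.82 ± 0.059 and 0.78 ± 0.12, log2 fold change ± SE), the first a repressor that competes for MAX and the second a relative of MYC. MXD3 and MNT, also repressors of that family, fell (-0.63 ± 0.045 and -0.63 ± 0.054). MLX, which pairs with factors that sense glucose, fell without cysteine (-0.37 ± 0.071). All 5 share exon bases with other genes and are uncertain to that extent.

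RNA polymerase III makes 5S rRNA and transfer RNA. Of its 21 genes and factors tested, 10 fell and 4 rose in excess cysteine (median -0.27) and 6 fell and 1 rose without cysteine (median -0.07). That is 47.6% lower in excess and 28.6% lower without cysteine, against 39.2% and 19.3% among the abundant genes and 22.9% and 8.51% among all genes tested. Not all of the list reaches a mean of 1000, as POLR3GL had a mean of 769.2 in 1X-Cys and 385.2 in 10X-Cys. POLR3C rose in both media (0.95 ± 0.09 in excess and 0.76 ± 0.13 without cysteine), with 1X-Cys at 1559 ± 274 normalized counts (SD, n = 4), and it shares exon bases with another gene. GTF3C6, a subunit of transcription factor IIIC, fell in excess (-0.91 ± 0.05) and POLR3K fell without cysteine (-0.66 ± 0.067). Of 15 genes of the RNA exosome, its cofactors and the exonuclease XRN2, which trim rRNA precursors, 8 fell and 3 rose in excess (median -0.17). Without cysteine 5 fell and 1 rose (median -0.20). These are 53.3% and 33.3% lower, beside the same shares of abundant genes and of all genes tested. Here too some genes are less abundant, as EXOSC4 had a mean of 792.7 in 0X-Cys and 758.8 in 10X-Cys.

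The 1 annotated rRNA gene that passed the filter, RNA5-8SN1, varied from 132 to 1542 normalized counts over the 10 libraries. These libraries were made from poly(A)-selected RNA, and rRNA has no poly(A) tail, so its values do not measure rRNA output.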
